A study of Homo sapiens with 6 samples.

Results

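LUM, DCN, VCAN, FN1 and THBS1 encode secreted proteins of the extracellular matrix, and their transcripts were examined in a breast cancer cell line given a small interfering RNA (siRNA) against CSRP2. They are 5 of the 14884 genes for which a named probe set was at hand. They were selected on the same contrast that is described here: each had passed the test as lower in siCSRP2 in an earlier analysis of these values, so their differences are given as a description, with no test. Where a gene had several probe sets, the brightest on average over the 6 arrays stood for it.

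Hs578T cells come from a human breast carcinoma, have a spindle-shaped, mesenchymal form, and do not express oestrogen receptor. Cells were grown with 10% fetal bovine serum and 0.01 mg/ml insulin, transfected with a lipid reagent carrying either a non-targeting siRNA (siControl, 3 arrays) or an siRNA against CSRP2 (siCSRP2, 3 arrays), moved to smaller wells after 24 h, and harvested 48 h later. All groups therefore share the line, the serum, the transfection and the replating. Total RNA was made into cDNA for Affymetrix HuGene 2.0 arrays. Whether the replicates were separate cultures is not said in the labels, so the spread between arrays may be technical.

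Lumican and decorin are small leucine-rich proteoglycans, which bind collagen fibrils and regulate their assembly. Versican is a large chondroitin sulfate proteoglycan that binds hyaluronan and makes a hydrated, loosely adhesive matrix around cells. Fibronectin is assembled by integrins into fibrils on which cells attach and migrate, and thrombospondin 1 is a matricellular glycoprotein that modulates adhesion and can activate latent TGF-beta. Tumour cells and fibroblasts both make these proteins, and CSRP2 itself encodes a LIM domain protein that bundles actin.

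Promoters were at hand in the RefSeq table (GRCh38.p14) for VCAN, FN1 and THBS1, 3 of the 5 genes. The 250 bases before each annotated start are shown 5′ to 3′ on the strand of the gene, because these are the regions nearest to transcripts that were lower together. Capitals mark matches to the motifs named below.
VCAN, chr5:83471494-83471743, plus strand: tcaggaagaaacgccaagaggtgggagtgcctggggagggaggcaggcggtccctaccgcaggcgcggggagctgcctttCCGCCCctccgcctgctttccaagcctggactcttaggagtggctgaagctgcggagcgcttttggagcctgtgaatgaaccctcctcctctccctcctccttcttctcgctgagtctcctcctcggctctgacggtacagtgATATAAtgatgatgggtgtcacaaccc
FN1, chr2:215436069-215436318, minus strand: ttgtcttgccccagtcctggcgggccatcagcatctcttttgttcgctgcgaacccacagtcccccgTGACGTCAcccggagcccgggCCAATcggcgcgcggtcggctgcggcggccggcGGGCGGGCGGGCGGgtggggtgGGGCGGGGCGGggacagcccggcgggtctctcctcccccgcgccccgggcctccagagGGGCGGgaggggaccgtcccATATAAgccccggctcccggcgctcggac
THBS1, chr15:39580829-39581078, plus strand: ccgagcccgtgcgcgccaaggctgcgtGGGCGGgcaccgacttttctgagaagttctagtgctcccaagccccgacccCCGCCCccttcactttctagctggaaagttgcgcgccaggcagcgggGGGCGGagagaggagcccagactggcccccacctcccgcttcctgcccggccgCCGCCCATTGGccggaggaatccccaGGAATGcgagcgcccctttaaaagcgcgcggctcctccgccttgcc

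The motifs were chosen after these sequences had been seen, and both strands were searched. The GC box letters GGGCGG occurred once in the VCAN window, 6 times in that of FN1, where several matches overlap by a few bases, and 4 times in that of THBS1, against 42.6% of all 35116 promoters with at least 1 match. The CCAAT box occurred in FN1 (162 to 158 bases before the start) and on the opposite strand in THBS1 (66 to 62 bases before it, next to a GC box), and in 32% of all promoters. The letters ATATAA, which resemble a TATA box, lay 27 to 22 bases before the VCAN start and 29 to 24 bases before that of FN1, and were found in 7.63% of all promoters. The canonical form, TATAAA, was in none of the 3 windows and in 10.7% of all. The cyclic AMP response element TGACGTCA was in the FN1 window, 183 to 176 bases before the start (1.65% of all promoters). The TEAD-type letters GGAATG were in the THBS1 window, 46 to 41 bases before the start (11.9% of all). The AP-1 type letters TGANTCA (6.57% of all) and the CArG box bound by serum response factor (1.16%) had no match in these windows. Of the motifs searched, GGGCGG was the one matched in each of the 3 windows. It is made of G and C alone, and the windows were rich in these bases. They held 60.8% (VCAN), 76.4% (FN1) and 69.6% (THBS1) G or C, beside a median of 58% over all promoters. A match is a description of the letters, not of binding.

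Over all probe sets the array medians ran from 2.70 to 2.82 on the log2 scale, and no 2 arrays shared more than 2 identical values. On the first principal component of the genes (63.2% of the variance) siControl 3 lay at -2.05, between the other controls (-31.5 and -31.2) and the siCSRP2 arrays (14.01 to 30.65), so results below are also given without it. CSRP2 gave 3.69, 4.01 and 4.35 in siControl and 3.25, 3.76 and 4.26 in siCSRP2. The groups overlapped, and limma did not call the difference (-0.26, SE 0.26; adjusted p = 0.583, and 0.839 when siControl 3 was left out). Paired by replicate number, the siCSRP2 value of CSRP2 was the lower one 3 times of 3, and with the replicate block the difference was not called either (adjusted p = 0.188), so the target gene does not check the labels. Of the mesenchymal-like markers listed, 5 of 11 were measured, with means over the list of 5.92 to 6.14 on siControl and 5.24 to 5.43 on siCSRP2 arrays, and VIM and AXL, 2 of these 5, were called lower, as was PRRX1 with the replicate block (-0.44, adjusted p = 0.0426, against 0.0731 without it). VIM, an intermediate filament gene, measured 8.04 ± 0.11 in siControl (SD, n = 3). The oestrogen receptor gene ESR1 measured 2.57 ± 0.08 there, under the median of all gene means (2.99). Across genes 974 were lower and 119 higher at an adjusted p under 0.05, so 89.1% of calls were lower, and this share was 76% with quantile normalization, 77.7% with cyclic loess and 94.5% with median centring.

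All 5 matrix genes were lower in siCSRP2, and in none did the groups overlap. The log2 differences ran from -1.43 for LUM to -0.59 for FN1, with a median of -1.10, beside a median of 0.02 over all genes and -0.15 over genes brighter than the median. With the groups apart, the siCSRP2 array had to be the lower one in every pair of equal replicate number. The 15 of 15 pairs over the 5 genes therefore add nothing, and they are the same 3 pairs of arrays for each gene. Since the genes were picked for being lower, the fact that 5 of 5 passed carries no weight beside the 6.54% of all genes called lower, nor does the absence of overlap beside the 16.2% of all genes whose siCSRP2 values all lay below their siControl values.

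LUM (probe set 16768406) gave log2 values of 6.98, 7.05 and 6.76 for siControl 1 to 3 and of 5.03, 5.69 and 5.80 for siCSRP2 1 to 3. The controls lay within 0.29 of each other, siCSRP2 1 stood lowest by a wide margin, and a gap of 0.96 separated the groups. The means were 6.93 ± 0.15 and 5.51 ± 0.42 (SD, n = 3), which is 2.69-fold lower signal, and 2.85-fold without siControl 3. The size depended most on siCSRP2 1: the difference was -1.19 without that array and -1.57 without siCSRP2 3.

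DCN (16768413) measured 5.32, 5.41 and 5.03 on siControl and 3.98, 4.14 and 4.37 on siCSRP2 arrays. siControl 3 was the lowest control for this gene, as it was for LUM, and siCSRP2 1 was again the lowest array. The means were 5.26 ± 0.20 and 4.16 ± 0.20 (SD, n = 3), a difference of -1.10 (2.14-fold), and of -1.21 (2.31-fold) without siControl 3. Each of the 6 values was above the median of all gene means (2.99).

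VCAN is listed for 2 probe sets. The brighter one (16986913) measured 8.19, 8.38 and 8.17 on siControl and 7.49, 7.24 and 7.37 on siCSRP2 arrays, with means of 8.25 ± 0.12 and 7.37 ± 0.12 (SD, n = 3). The arrays of each group lay within 0.25 of each other, so the difference of -0.88 (1.84-fold, and 1.89-fold without siControl 3) was several times the spread. The dim probe set (16997799) measured 3.07, 2.92 and 3.27 on siControl and 2.48, 2.23 and 2.59 on siCSRP2 arrays. Its groups were apart in the same direction, by -0.65. Its siControl mean (3.08) was close to the median of all gene means (2.99), and its siCSRP2 mean (2.43) was under it.

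FN1 (16908037) measured 10.99, 11.23 and 11.08 on siControl and 10.35, 10.67 and 10.51 on siCSRP2 arrays. The gap between the groups, 0.31, was about as wide as the range within siCSRP2 (0.32). The means were 11.1 ± 0.12 and 10.5 ± 0.16 (SD, n = 3), a difference of -0.59 (1.5-fold, and 1.51-fold without siControl 3). This was the smallest difference of the 5.

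THBS1 (16799315) measured 7.66, 8.20 and 7.89 on siControl and 6.31, 6.97 and 6.61 on siCSRP2 arrays. Its controls spread over 0.54 and its siCSRP2 arrays over 0.66, both near the gap of 0.69 between the groups. The means were 7.92 ± 0.27 and 6.63 ± 0.33 (SD, n = 3), a difference of -1.28 (2.44-fold, and 2.46-fold without siControl 3). Taken pair by pair the differences were much alike: -1.35, -1.23 and -1.28 for replicates 1, 2 and 3. For LUM the corresponding values were -1.96, -1.36 and -0.96.

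**Figure D1:**
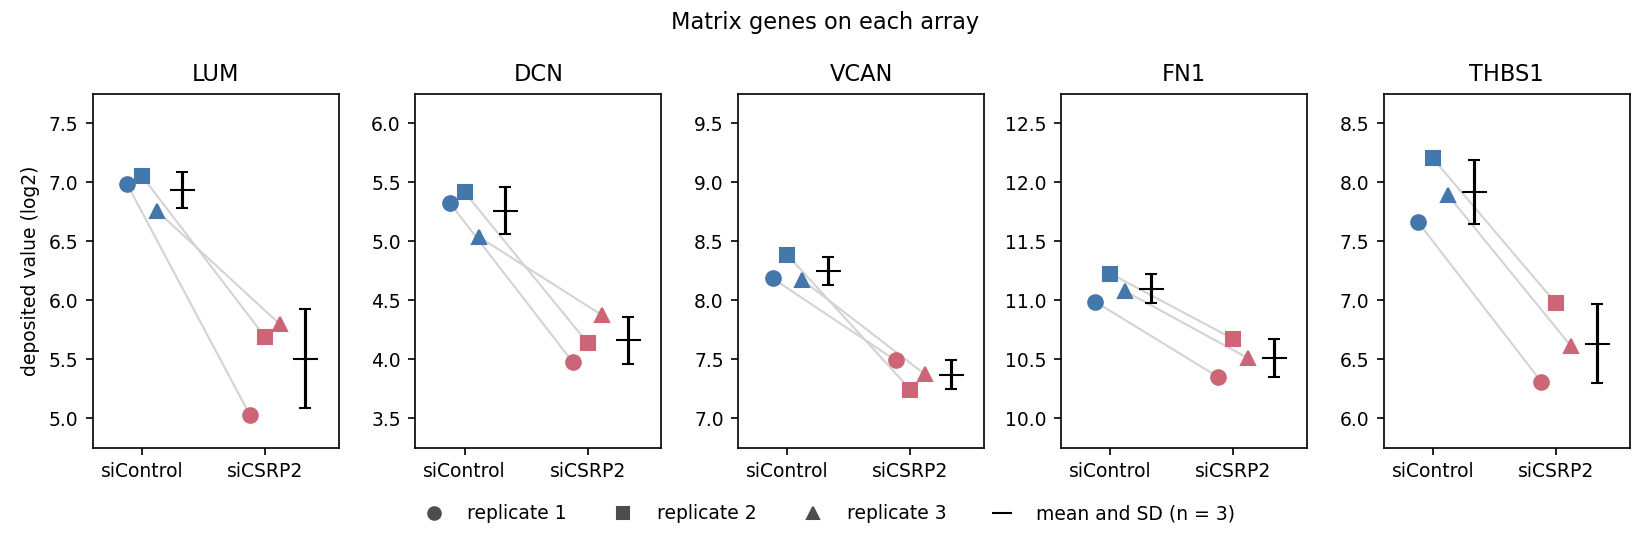
Deposited log2 value (y axis, each panel spanning 3 units from its own start) of LUM, DCN, VCAN, FN1 and THBS1 on the 3 siControl and 3 siCSRP2 arrays. Symbols give the replicate number, grey lines join equal numbers, and black bars give mean and SD; in each panel the siCSRP2 arrays lie below the siControl arrays, with the widest gap for LUM (0.96).

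The value that chose the 5 genes, an adjusted p under 0.05 in limma over all genes, lay nearest to its limit for FN1 (0.0299), and just outside it among the related genes lay TLR4, which encodes an innate immune receptor (0.0566). These values describe the choice and are no test of the 5 genes. The choice depended on which arrays were kept. The same rule would have taken none of the 5 without siControl 2, all 5 without siControl 3, and 4 (not FN1) without any 1 of the other arrays. Without siControl 2 the calls over all genes fell too, from 1093 to 91, and why was not tested. The differences themselves stayed below 0 in each of these fits, as they must where the groups do not overlap. A lower signal in bulk RNA can come from fewer cells that express a gene or from less RNA per cell, and these cannot be told apart here.

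The 5 genes varied in different ways among arrays of one group. FN1 and THBS1 deviated from their group means almost in proportion: both were lowest on replicate 1 and highest on replicate 2 in either group, and their deviations correlated at r = 0.998 over the 6 arrays. LUM and DCN went together as well (r = 0.827), with siControl 3 low and siCSRP2 3 high. The 2 pairs were not separate: LUM also correlated with FN1 (0.671) and THBS1 (0.622), and DCN less so (0.384 and 0.338). VCAN followed none of the other 4 closely (r from -0.361 to 0.152). Over the 6 values themselves, 10 pairs of genes gave r from 0.8898 to 0.9996 (FN1 with THBS1), values that the shared group difference raises. The deviations of a group sum to 0 and all genes share the same 6 arrays, so these correlations describe these arrays.

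**Figure D2:**
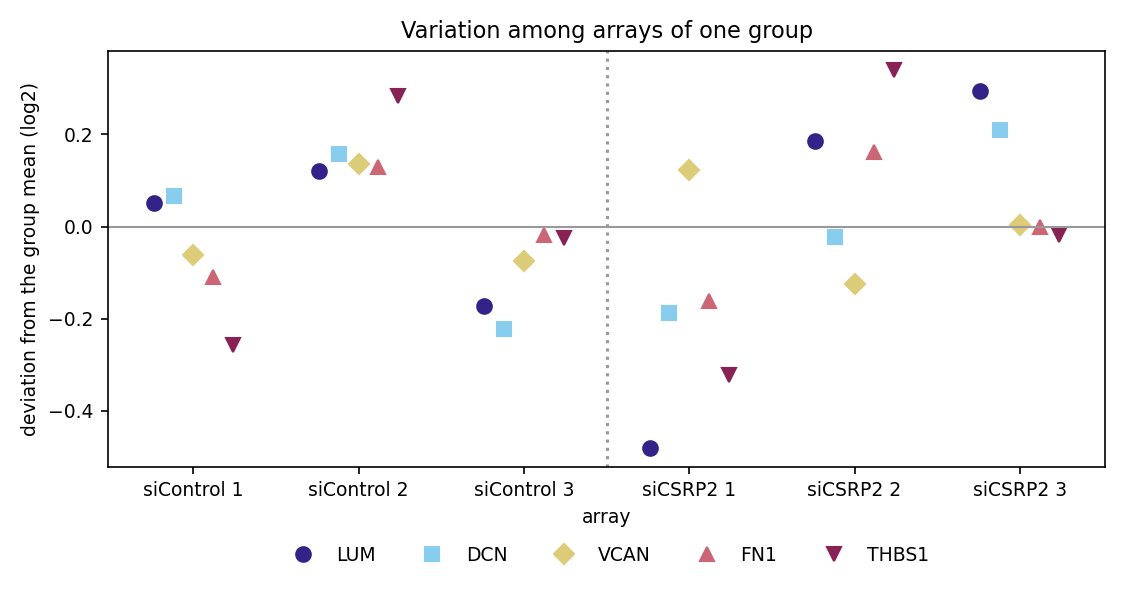
Deviation of each array from the mean of its own group (y axis, log2) for LUM, DCN, VCAN, FN1 and THBS1 on the 3 siControl and 3 siCSRP2 arrays (x axis). FN1 and THBS1 lie on the same side of 0 on every array, with THBS1 farther out on each, while VCAN lies opposite to them on siCSRP2 1 and siCSRP2 2.

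Among 7437 other genes brighter than the median, the 3 most like each matrix gene were taken by Pearson r over the 6 arrays. All were lower in siCSRP2, which this ranking brings about, since each matrix gene had been selected as lower. Their deviations from the group means correlated with those of the matrix gene at 0.906 (VCAN with PCTP) to 0.999 (LUM with PCOLCE, FN1 with BDKRB2). The ranking raises these values too. LUM was followed most closely by PCOLCE, which encodes an enhancer of procollagen processing (r = 0.9999; 6.76 ± 0.10 in siControl and 5.81 ± 0.28 in siCSRP2, SD, n = 3), then TMEM87B (0.9979) and CALR, the chaperone calreticulin (0.997). DCN was followed by KDELR3, a receptor that returns chaperones to the endoplasmic reticulum (0.999), SNHG18 (0.998) and LSP1P4 (0.9963). VCAN was followed by DCAF7 (0.9991), the circadian transcription factor gene DBP (0.9973) and PCTP (0.9945). FN1 and THBS1 had the same 3 genes in the same order: CCDC14 (0.9991 and 0.9982), the bradykinin receptor gene BDKRB2 (0.9967 and 0.9972) and TOX (0.9938 and 0.994). Between 439 and 775 of the 7437 genes had r above 0.9 with a given matrix gene, so a high r was common in these 6 arrays.

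LUM and DCN are next to each other among protein-coding genes in the RefSeq gene table, with KERA and then EPYC, both small leucine-rich proteoglycan genes, on the far side of LUM. KERA measured 2.25 ± 0.12 in siControl and 2.38 ± 0.04 in siCSRP2, and EPYC 2.36 ± 0.11 and 2.36 ± 0.06 (SD, n = 3), all under the median of gene means. HAPLN1, a link protein gene, and then EDIL3 follow VCAN. HAPLN1 measured 2.21 ± 0.05 and 2.45 ± 0.17 and did not pass, whereas EDIL3 fell. KERA, EPYC and HAPLN1 were singled out for their position after their values were seen.

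The other genes of the same pathways were taken from 9 lists that share no gene and leave out the 5 matrix genes, and 103 of 172 listed genes had a named probe set. Of these, 13 were lower and 1 was higher at an adjusted p under 0.05 (limma over all genes). Over all genes 6.54% were lower and 0.800% higher, but this background is not matched in brightness. Of the 103, 64 were brighter than the median gene. Once the dimmest 50% of the 14884 genes were left out, 14 of these 64 related genes were lower and 2 higher. Among all genes kept (the 5 matrix genes and 7437 others), 1141 were lower and 149 higher. The median difference was then -0.13 for related genes and -0.15 for all genes kept. With no gene left out, the median difference of the 103 was -0.04, beside 0.02 over all genes. With the replicate number as a block 22 were lower and 3 higher, against 13.1% and 2.67% of all genes. The number of related genes that passed also changed with the array left out. Among the controls, leaving out siControl 1 gave 3, siControl 2 gave 2 and siControl 3 gave 24. Among the siCSRP2 arrays, leaving out siCSRP2 1 gave 12, siCSRP2 2 gave 3 and siCSRP2 3 gave 6. CHST3 and MMP13 passed in each of these 6 fits, UST in 4, EDIL3, CALR and HTRA1 in 3, SDC2, LOXL3, XYLT2, CSGALNACT1, PAPSS1 and LTBP1 in 2, and LRP5 and CSGALNACT2 in 1.

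Enzymes that build the chondroitin and dermatan sulfate chains carried by decorin and versican form the longest list. Of 21 measured, 5 fell, 1 rose and 15 did not pass, beside 6.54% lower and 0.800% higher over all genes. The differences of 18 of the 21 were below 0 (median -0.14). This list is bright: 18 of its 21 genes were above the median brightness, and all genes above it had a median difference of -0.15. The 6 calls became 2 without siControl 1 or siCSRP2 3, 1 without siControl 2 or siCSRP2 2, 5 without siCSRP2 1 and 8 without siControl 3. CHST3, a chondroitin sulfotransferase, fell 2.58-fold: it measured 5.40, 5.42 and 5.10 on siControl and 4.05, 3.73 and 4.05 on siCSRP2 arrays (difference -1.36, SE 0.14, adjusted p = 0.00316). Its groups were more than 1 log2 unit apart. The uronyl sulfotransferase UST fell 2.18-fold (-1.12, SE 0.17). XYLT2, which starts the chain by adding xylose to the core protein, fell by 0.70, CSGALNACT1, which adds the first N-acetylgalactosamine, fell by 0.68, and PAPSS1, which makes the sulfate donor, fell by 0.74. PAPSS1 did not pass after quantile normalization (adjusted p = 0.0855) or cyclic loess (0.0761).

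CSGALNACT2, a paralogue with the same activity as CSGALNACT1, rose 2.10-fold (difference 1.07, SE 0.26, adjusted p = 0.044). It measured 3.92, 4.01 and 4.84 on siControl and 5.07, 5.20 and 5.71 on siCSRP2 arrays. siControl 3 lay near the siCSRP2 values, and the difference was 1.36 without it. With the replicate block CHST12 (-0.93), UGDH, which makes the UDP-glucuronate substrate (-0.49), and XYLT1 (-0.50) were lower too, for 8 lower and 1 higher.

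None of the 13 measured small leucine-rich proteoglycans other than LUM and DCN passed the limma test, with or without the replicate block. None had an unadjusted p under 0.05, beside 23.7% of all genes. Their median difference was 0.08, and 3 of the 13 were brighter than the median gene. BGN, which encodes biglycan, measured 8.36, 8.87 and 8.13 on siControl and 7.61, 8.46 and 8.0 on siCSRP2 arrays. These groups overlapped, and the difference was -0.43 (SE 0.24, adjusted p = 0.326). OPTC (0.29, adjusted p = 0.27) had the smallest adjusted p.

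Of 15 measured relatives of versican and hyaluronan partners none passed the limma test, 5 had an unadjusted p under 0.05, beside 23.7% of all genes, and the median difference was 0.05. Only 5 of the 15 were brighter than the median gene. HAS2, the main hyaluronan synthase of many mesenchymal cells, measured 6.04, 6.13 and 7.89 on siControl and 7.75, 8.64 and 8.84 on siCSRP2 arrays. siControl 3 overlapped the siCSRP2 arrays and the difference of 1.72 (SE 0.48) did not pass (adjusted p = 0.0658). It was higher with the replicate block (adjusted p = 0.0041) and without siControl 3, where it was 2.32. CEMIP, which takes part in hyaluronan breakdown, differed by -0.52 (adjusted p = 0.0576) and was lower with the block (adjusted p = 0.0198). The mean of CEMIP over the 6 arrays (2.73) was under the median of gene means (2.99). The hyaluronan receptor gene CD44, named after its values were seen, measured 8.29 ± 0.14 and 7.97 ± 0.08 (SD, n = 3; difference -0.32, adjusted p = 0.137).

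Of 24 listed fibronectin receptors and matrix partners 12 were measured, and none of these was an integrin. Among the 12, 2 fell and none rose, beside 6.54% lower and 0.800% higher over all genes. Their median difference was -0.20. Of the 12, 10 were brighter than the median gene, and all such genes had a median of -0.15. SDC2, a heparan sulfate syndecan, measured 6.73, 6.60 and 6.58 on siControl and 6.09, 5.95 and 5.96 on siCSRP2 arrays (difference -0.64, SE 0.11, adjusted p = 0.0137). EDIL3, an RGD-containing matrix protein that binds integrins, measured 7.84, 7.75 and 7.92 on siControl and 6.74, 7.02 and 7.30 on siCSRP2 arrays (-0.82, SE 0.15, adjusted p = 0.0185). With the replicate block MFAP2, a microfibril protein gene, was lower as well (-0.40), and SDC4, the syndecan of focal adhesions, was higher (0.50, adjusted p = 0.0247, against 0.0992 without the block). The list held 5 calls without siControl 3 and none without siControl 1, siControl 2 or siCSRP2 2.

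Of 9 measured thrombospondins and thrombospondin receptors 2 fell and none rose, beside 6.54% lower and 0.800% higher over all genes. Their median difference was -0.27, and 5 of the 9 were brighter than the median gene. CALR, calreticulin, which also acts at the cell surface as a receptor for thrombospondin 1, fell 1.54-fold, from 10.2 ± 0.07 to 9.57 ± 0.15 (SD, n = 3; adjusted p = 0.0197). LRP5, a Wnt co-receptor listed as a relative of LRP1, fell by 0.93 (adjusted p = 0.0449), but did not pass after cyclic loess (adjusted p = 0.0566). Its siControl 3 value, 3.63, lay nearer to the siCSRP2 arrays (3.09 to 3.41) than to the other controls (4.48 and 4.50). CD47, a receptor for thrombospondin 1, differed by -0.52 and was lower with the block (adjusted p = 0.0333). THBS2, the gene most closely related to THBS1, measured 2.57 ± 0.02 and 2.59 ± 0.16 (SD, n = 3), under the median of gene means.

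Of the collagen list 5 of 24 genes were measured, all of them cross-linking enzymes and all brighter than the median gene. Among the 5, 1 fell and none rose, beside 6.54% lower and 0.800% higher over all genes. The gene that fell was the lysyl oxidase relative LOXL3 (-0.79, SE 0.16, adjusted p = 0.0258). LOXL1 differed by -0.68 (adjusted p = 0.137) and was lower with the block (adjusted p = 0.00858). LOX itself differed by 0.33 (adjusted p = 0.402), the opposite direction. Without siControl 3 the list held 4 calls, 2 lower and 2 higher.

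Of 25 listed proteases and inhibitors 9 were measured, and 7 of the 9 were brighter than the median gene. Among the 9, 2 fell and none rose, beside 6.54% lower and 0.800% higher over all genes. MMP13, a collagenase that also cuts fibronectin, fell: it measured 5.72, 6.40 and 7.05 on siControl and 2.49, 2.73 and 3.17 on siCSRP2 arrays (difference -3.59, SE 0.31, adjusted p = 0.00228). The siCSRP2 mean (2.80) was under the median of gene means, where the background is not known, so no fold is given. HTRA1, a secreted serine protease that cuts fibronectin and decorin, measured 5.41, 5.43 and 4.79 on siControl and 3.76, 3.75 and 4.26 on siCSRP2 arrays, and fell 2.43-fold (-1.28, SE 0.21, adjusted p = 0.0128). The membrane protease gene MMP14 differed by -0.01 and the inhibitor gene TIMP3 by -0.12 (adjusted p = 0.967 and 0.557).

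Of 10 measured TGF-beta pathway genes 1 fell and none rose, beside 6.54% lower and 0.800% higher over all genes. None of the 10 encodes a TGF-beta ligand or TGF-beta receptor, and 8 were brighter than the median gene. The gene that fell was LTBP1, which tethers latent TGF-beta to fibronectin and fibrillin in the matrix (8.11 ± 0.13 to 7.59 ± 0.06, SD, n = 3, difference -0.53, adjusted p = 0.0298). It did not pass after quantile normalization (adjusted p = 0.0538) or with eBayes set to trend and robust (0.0637). LTBP4 differed by -0.39 and was lower with the block (adjusted p = 0.0461). Of 9 measured receptors bound by decorin, biglycan or versican none passed the limma test, and 2 had an unadjusted p under 0.05, beside 23.7% of all genes. Only 3 of the 9 were brighter than the median gene. TLR4 (-0.53) was lower with the block (adjusted p = 0.0243) and IGF1R was not (-0.32, adjusted p = 0.0915 with the block). EGFR, a decorin receptor, differed by -0.05 (adjusted p = 0.896).

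**Figure D3:**
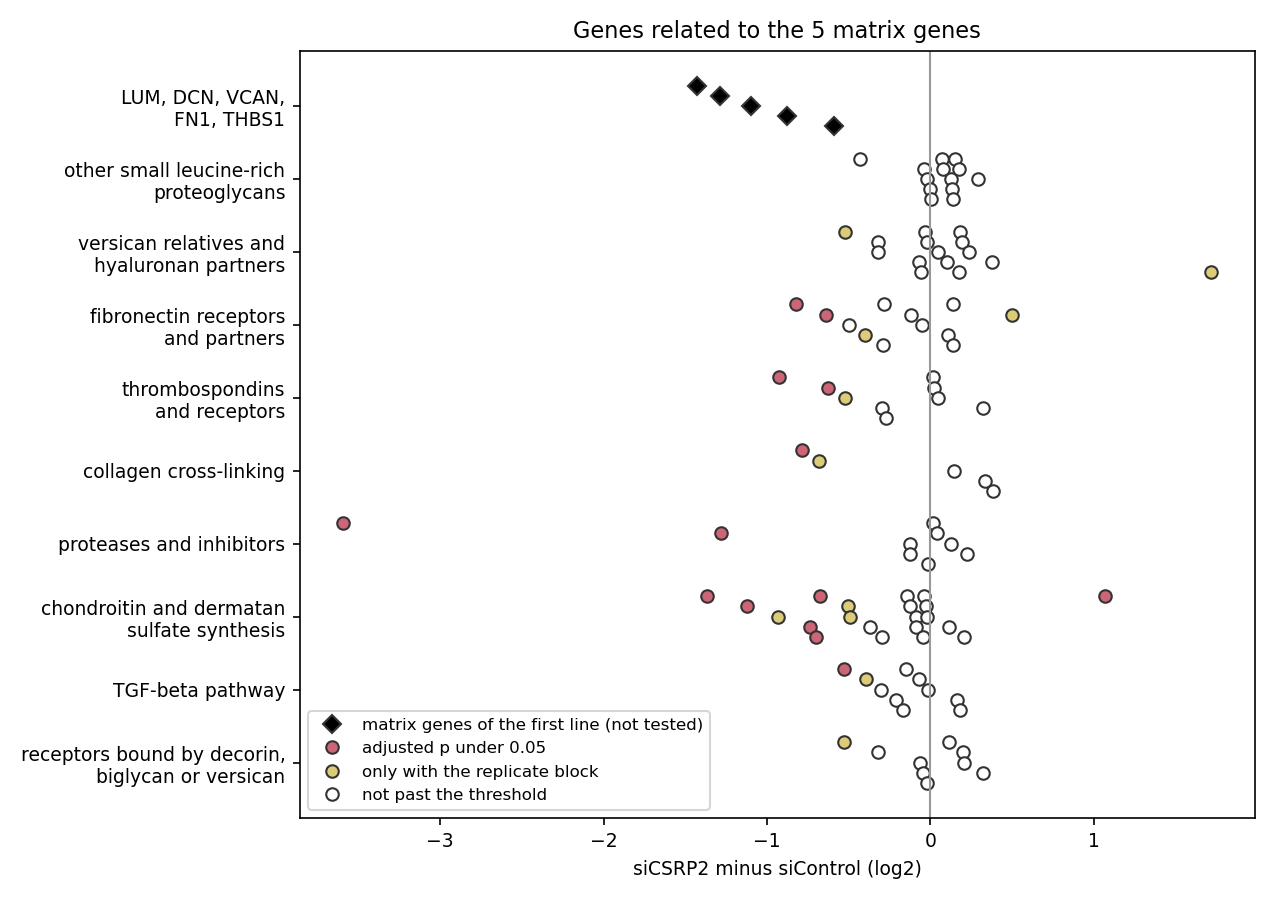
Difference between the group means (x axis, siCSRP2 minus siControl, log2; 3 arrays a group) for LUM, DCN, VCAN, FN1 and THBS1 (diamonds, not tested) and for 103 related genes in 9 lists (circles, y axis). Red circles passed limma at an adjusted p under 0.05, yellow ones passed with the replicate block alone, and white ones passed neither; the longest list, the chondroitin and dermatan sulfate enzymes, holds 6 red circles of 21.

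Markers of other cell types were measured beside these genes. Means over 10 measured luminal epithelial-like markers ran from 3.45 to 3.57 on siControl and from 3.43 to 3.66 on siCSRP2 arrays, with a median difference of 0.15 and 3 of the 10 differences below 0. None passed the limma test, and 3 had an unadjusted p under 0.05, beside 23.7% of all genes. These were KRT18 (-0.74), CLDN3 (0.33) and GRHL2 (0.32), each with groups apart. KRT18 was lower with the replicate block (adjusted p = 0.00746), and CLDN3 and GRHL2 did not pass with it. Means over 3 measured leukocyte-like markers ran from 4.52 to 4.70 and from 4.47 to 5.18, and none of the 3 passed the limma test. Among them CD68, a macrophage marker, measured 7.39, 7.46 and 7.95 on siControl and 8.30, 8.48 and 7.94 on siCSRP2 arrays, with overlapping groups (difference 0.64, adjusted p = 0.0778, and 0.00971 without siControl 3), whereas CD14 was at 2.64 in both groups. Means over 4 measured endothelial-like markers ran from 2.48 to 2.62 and from 2.58 to 2.71. Of these ERG rose from 2.62 ± 0.10 to 3.15 ± 0.16 (SD, n = 3, limma adjusted p = 0.0398). The siControl mean of ERG was under the median of gene means (2.99), where the background is not known. The part of any other cell type in the lower matrix signals was not tested.

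Changing the scale or the summary moved the 5 differences by less than the spread between arrays. Over the settings that kept all arrays LUM ranged from -1.51 to -1.31, DCN from -1.18 to -0.93, VCAN from -0.96 to -0.76, FN1 from -0.67 to -0.53 and THBS1 from -1.37 to -1.16. The low end of each range came from median centring. The order LUM, THBS1, DCN, VCAN, FN1 held under these settings except with array weights, where DCN (-1.17) came before THBS1 (-1.16), and except without siControl 1, where THBS1 came first. The 3 largest differences overlapped within the ranges that leaving out 1 array gave, so their order is not beyond their spread.

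**Figure D4:**
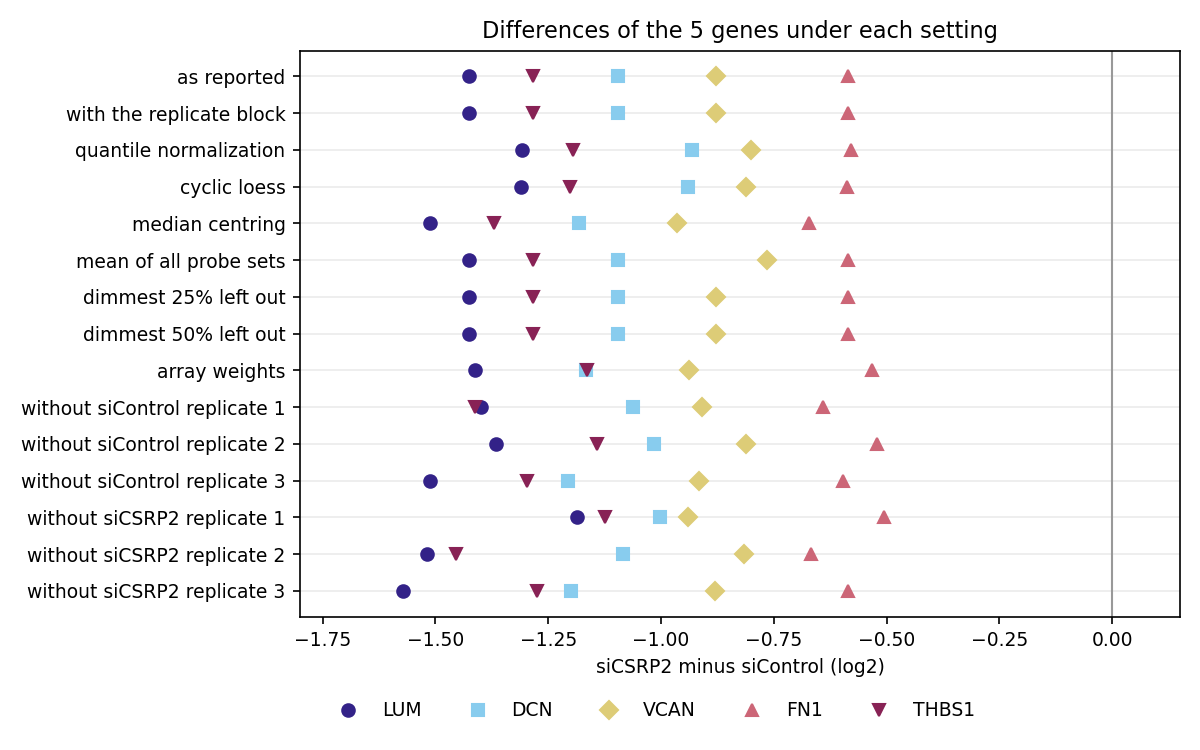
Difference of LUM, DCN, VCAN, FN1 and THBS1 (x axis, siCSRP2 minus siControl, log2) as reported and under each alternative setting (y axis). Every point lies below 0, FN1 is nearest to 0 throughout, and the widest movement is that of LUM when 1 siCSRP2 array is left out (-1.57 to -1.19).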

How the data were processed

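Total RNA from 6 samples of Hs578T cells (3 siControl, 3 siCSRP2) was measured on Affymetrix arrays. What the authors deposited is a table of log2 values, 53617 probe sets for each array, with base 2 inferred from their range. Per the submitters' processing notes Partek was used, with no version or role named. How background was corrected, probes summarised and arrays normalized, and on which genome build, is not given in the sources used here. There were no detection calls, so no probe set has a marked limit of background, and the number of arrays limits the precision.

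The platform table gave 16098 probe sets 1 gene symbol, and all matched the RefSeq gene table by gene identifier. The brightest probe set of each gene was kept (14884 genes), with no filter and no further normalization. The test was that of limma 3.58.1, run in R 4.3.3 with lmFit and eBayes and adjusted over all genes by Benjamini-Hochberg (two-sided, threshold 0.05), and the fit was tested on simulated data. Samples were grouped by their titles. The 5 genes and the 9 lists were chosen with earlier results of these data known. Named are the 5 genes, CSRP2, list genes that passed with or without the replicate block, up to 2 with the smallest adjusted p in lists with fewer than 2 calls, TLR4 as the list gene nearest above the threshold, and the 3 genes most like each of the 5 by Pearson r. BGN is one of those with the smallest adjusted p. CD44, EGFR, LOX, MMP14, TIMP3, THBS2, HAPLN1, KERA, EPYC and the markers VIM, AXL, PRRX1, ESR1, KRT18, CLDN3, GRHL2, CD68, CD14 and ERG were named after their values were seen.

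Deviations from the group means correlated at 0.305, 0.187 and 0.321 between arrays of equal replicate number and at -0.256 to 0.052 between others, so equal numbers count as pairs here, but the fit reported is the unpaired one set at the start, and the block is an alternative given beside it. The pairing comes from the data, since the labels tie no number to a plate or day. The alternatives were the replicate block, quantile, cyclic loess and median scaling, the mean of a gene's probe sets, leaving out the dimmest 25% or 50% of genes, eBayes with trend and robust, array weights, and leaving out each array.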

Additional observations from a re-analysis of the deposited data

How the results depend on the processing

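The differences of LUM, DCN, VCAN, FN1 and THBS1 kept their direction in each of the 14 alternatives run for each gene. They moved by less than 1 SD of the arrays. Several alternatives could not do otherwise. The replicate block and leaving out dim genes return the same difference, as does the mean of probe sets for genes with 1 probe set. With the groups apart, leaving out 1 array cannot reverse a direction. With 1 array left out the differences ranged from -1.57 to -1.19 (LUM), -1.21 to -1.0 (DCN), -0.94 to -0.81 (VCAN), -0.67 to -0.51 (FN1) and -1.45 to -1.12 (THBS1). The counts of calls were less stable. Over all genes 1093 passed, against 2348 with the replicate block, 2924 with array weights and between 91 and 2620 with 1 array left out. Of the 103 related genes 14 passed, against 25 with the replicate block, 27 with array weights and between 2 and 24 with 1 array left out. The cause of these shifts was not tested. The other alternatives gave 13 to 21 related genes. No related gene that passed with or without the block changed direction under any alternative. The block leaves the differences themselves as they are, and beside the calls named in the report it changed no other call among the related genes. No background value was at hand, which limits what can be said of dim genes such as KERA, EPYC, HAPLN1, THBS2, CEMIP and ERG.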

Other observations

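The genes that lie around the 5 matrix genes in the RefSeq gene table were looked at after the values were seen. Of 13 measured neighbours (up to 2 protein-coding genes on each side), 3 fell and none rose, beside 6.54% lower and 0.800% higher over all genes: EDIL3 near VCAN, and on either side of FN1 the purine synthesis enzyme gene ATIC (5.23 ± 0.63 to 3.79 ± 0.58, SD, n = 3; difference -1.44, limma adjusted p = 0.0452) and the peroxisomal reductase gene PECR (3.52 ± 0.24 to 2.90 ± 0.18; -0.62, adjusted p = 0.0449). XRCC4, a DNA end-joining gene next to VCAN, differed by -0.74 and was lower with the replicate block alone (adjusted p = 0.00902). FSIP1 and GPR176, beside THBS1, differed by 0.02 and 0.26 and did not pass (adjusted p = 0.949 and 0.543).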
